A study of Mus musculus with 2 samples.

Results

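The Tdpoz gene cluster of the mouse was examined block by block in sorted embryonic stem (ES) cells. It was taken as a stretch of 650 kb of chromosome 3, whose first covered base is 93430249 and last 94079616 in mm9. A covered block is a run of bases with read depth above 0 in either library, and all 437 blocks of the stretch were taken, of 801091 in the genome. The stretch had been picked because its 10 kb windows passed a 4-fold limit between the libraries. The differences between libraries given below are therefore descriptions. The choice did not use the positions, lengths and shared patterns of the blocks, though the shared patterns rest on start counts of both libraries.

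Tdpoz genes encode proteins with a TRAF (MATH) domain, which binds partner proteins, and a BTB/POZ domain, which binds other BTB domains and cullin 3. The best known protein with both domains is SPOP, which brings substrates to ubiquitin ligases made with cullin 3. Tdpoz transcripts are known from eggs and 2-cell embryos. The Spopfm genes, named for their likeness to Spop, lie in the same cluster.

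The cells were mouse ES cells of mixed strain with floxed Kdm1a alleles (Kdm1a FL/FL, the gene of the histone demethylase LSD1) and a CreERT transgene. Both groups carried these alleles and the 2C::tomato reporter, whose promoter comes from MuERV-L, an endogenous retrovirus transcribed in the 2-cell embryo. They were grown on gelatin in ES-KOSR medium with hygromycin at 150 µg/ml and were sorted by flow cytometry into 2C::tomato+ and 2C::tomato- cells. The labels name no treatment that would activate the CreERT transgene. Each population gave 1 library, here the positive and the negative library, so no difference has a replicate check and no p-value is given. In bulk RNA of this kind, more cells with a transcript and more transcript per cell cannot be told apart.

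The positive library held 37059813 alignments of 72 bases and the negative library 33833215. A ratio below is the positive share of all alignments over the negative share, with a 95% exact conditional binomial (Clopper-Pearson) interval. Reads that match several places are listed at each of them, so totals are alignments rather than reads, and intervals cover counting error only and are too narrow. Where the negative library had 0, 3 alignments were put in its place. The ratio is then a stand-in, and the lower end of its exact interval lies below it. The ES and 2-cell-like markers were not checked by gene, since coordinates of the annotation, made for GRCm38, were not carried to mm9. For the same reason no block is given a gene name.

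The genes themselves are closely related in sequence. The RefSeq table for GRCm38.p6 lists 29 genes between S100a10 and Them4, the neighbours of the cluster. They include 7 Tdpoz and 3 Spopfm genes, and 19 of the 29 are typed as pseudogenes, Spopfm1 and Spopfm3 among them. Over the whole coding sequence, Tdpoz1 was 82.1% identical to Tdpoz2, 88.0% to Tdpoz3 and 76.6% to Tdpoz4. It was 98.4% identical to Tdpoz9, 80.6% to Spopfm2 and 67.9% to Spop. Tdpoz5 and Tdpoz7 were 100% identical. The first 72 coding bases, which is the length of 1 alignment, are shown 5′ to 3′ from the reference transcripts of GENCODE M21 to let these distances be seen. Capitals mark bases that differ from Tdpoz1.

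Tdpoz1: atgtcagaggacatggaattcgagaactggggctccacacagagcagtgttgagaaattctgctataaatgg
Tdpoz2: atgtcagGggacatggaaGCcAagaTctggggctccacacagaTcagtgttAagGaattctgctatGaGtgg
Tdpoz3: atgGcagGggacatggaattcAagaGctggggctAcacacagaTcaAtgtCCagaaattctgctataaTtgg
Tdpoz4: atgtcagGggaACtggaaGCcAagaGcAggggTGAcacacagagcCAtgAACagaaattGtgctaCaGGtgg
Tdpoz9: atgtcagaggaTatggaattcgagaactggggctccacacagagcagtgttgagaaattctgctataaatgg
Spopfm2: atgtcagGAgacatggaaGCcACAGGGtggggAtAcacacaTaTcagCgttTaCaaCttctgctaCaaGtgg

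Within these 72 bases Tdpoz9 had 1 difference from Tdpoz1, Tdpoz2 and Tdpoz3 had 10 each, and Tdpoz4 and Spopfm2 had 20 each. A read from this stretch can thus be told apart between Tdpoz1 and Tdpoz4, but between Tdpoz1 and Tdpoz9 only by 1 base. Over whole transcripts, 33.6% of the 72-base words of Tdpoz1 occurred in transcripts of other genes. The share was 34.6% for Tdpoz2, 55.5% for Tdpoz3, 22.0% for Tdpoz4, 86.6% for Tdpoz9 and 100% for Tdpoz5 and Tdpoz7. Among Spopfm genes it was 67.5% for Spopfm3, 35.8% for Spopfm2 and 1.03% for Spopfm1. Spop, on chromosome 11, shared 0%.

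Upstream of their starts some genes of the cluster were alike and others were not. Windows of 250 bases were aligned end to end, and gap columns were counted as differences. Tdpoz1 was 79.9% identical to Tdpoz9 (222 of 278 columns) and 65.6% to Spopfm2 (183 of 279). Tdpoz9 was 73.2% identical to Spopfm2 (191 of 261). The windows are set by the annotated starts, and an offset between starts adds gap columns. These values can therefore understate the likeness of the bases that align. Tdpoz1 was 43.3% identical to Tdpoz4 and 40.8% to Tdpoz5, whose models have 1 exon. Other windows were as alike or more so. Tdpoz5 and Tdpoz7 were 99.6% identical. A window of Tdpoz8 was 82.9% identical to Tdpoz9, 75.8% to Spopfm2 and 69.1% to Tdpoz1, and another window of Tdpoz8 was 91.1% identical to Tdpoz4. The 250 bases before the annotated start are shown for 3 genes of the cluster whose models have a separate first exon. The windows shown are from RefSeq on GRCm38.p6, each on the minus strand. They are Tdpoz1 (chr3:93676284-93676533), Tdpoz9 (chr3:94054886-94055135) and Spopfm2 (chr3:94178194-94178443). Capitals mark TATATAA.

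Tdpoz1: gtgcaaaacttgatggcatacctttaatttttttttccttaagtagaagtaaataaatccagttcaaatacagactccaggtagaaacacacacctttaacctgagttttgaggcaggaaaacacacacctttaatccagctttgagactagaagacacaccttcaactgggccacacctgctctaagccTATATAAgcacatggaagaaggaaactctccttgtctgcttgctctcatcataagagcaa
Tdpoz9: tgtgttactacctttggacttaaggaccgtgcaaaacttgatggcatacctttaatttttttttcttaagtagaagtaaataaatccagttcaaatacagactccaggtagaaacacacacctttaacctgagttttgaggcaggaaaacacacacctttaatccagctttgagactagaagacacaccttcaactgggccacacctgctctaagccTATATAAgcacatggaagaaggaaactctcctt
Spopfm2: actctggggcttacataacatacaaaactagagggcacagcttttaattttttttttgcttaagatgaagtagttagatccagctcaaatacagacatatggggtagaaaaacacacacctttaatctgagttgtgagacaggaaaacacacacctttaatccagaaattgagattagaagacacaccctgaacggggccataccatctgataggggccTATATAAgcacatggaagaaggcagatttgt

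TATATAA stood with its first base 60 bases before the start in Tdpoz1, 33 in Tdpoz9 and 31 in Spopfm2. It was also present in Tdpoz8, at 29 bases. Searched on both strands, it occurred in 998 of 32851 windows of this length (3.04%). TATATAA does not contain TATAAA, which was in 12.4% of windows. CCAAT was in 33.8% of them and GGGCGG in 32.7%. CCAAT was present in Tdpoz5 and Tdpoz7, GGGCGG in Spop, and TATAAA in none of the genes examined. The windows of Tdpoz4, Tdpoz5 and Tdpoz7 precede a coding exon, since their models have 1 exon. Tdpoz2 and Tdpoz3 are named only.

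Transcripts of the region were abundant in the positive library and rare in the negative library. The positive library placed 4345 alignments there and the negative library 381, or 117 and 11.3 per 1000000 alignments of the library. The ratio was 10.4 (9.37 to 11.6). Covered bases made up 10.6% of the region, 65373 of them in the positive and 8254 in the negative library. Of the 437 blocks, 355 held alignments of the positive library only, 40 of the negative library only and 42 of both. Most were thin: 223 blocks had 1 alignment, 190 of them from the positive library. Of the 65 windows of 10 kb, 33 had at least 20 alignments and 28 of these had a ratio of at least 4 with an interval above 1, against 1.69% of the 48349 windows compared in the genome. The region had been chosen by this very measure, so the count is no result about it. The window just inside the limit had 19 and 4 alignments (4.34, 1.44 to 17.5) and the one just outside 62 and 69 (0.820, 0.573 to 1.17).

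Of the 437 blocks, 36 had at least 20 alignments in both libraries together and could be compared. By the same size rule 27 of them were higher in the positive library, against 0.98% of 103461 blocks compared in the genome. The region had been chosen by this ratio, and blocks with few or no negative alignments reach the minimum through the positive library. Many of the 27 are also copies listed with the same reads. This count too is therefore no result about the region. These 27 blocks held 3205 positive and 12 negative alignments, 73.8% and 3.15% of the region's totals, at a ratio of 244 (139 to 472). The negative library had 0 alignments in 18 of them. The other 9 compared blocks held 192 positive and 255 negative alignments, a ratio of 0.687 (0.567 to 0.832), and with them 66.9% of the region's negative alignments. Most of these 9 are copies of 2 families described below, whose reads are listed at each copy. The interval is therefore too narrow, and the share counts those reads several times. Among the higher blocks with negative alignments, the lowest ratio was at chr3:93713737-93715510, with 217 and 2 alignments (99.1, 27.1 to 823). The highest of the 9 was the block at chr3:93561911-93562038, with 44 in each (0.913, 0.587 to 1.42). The 401 blocks under 20 alignments summed to 948 and 114, a ratio of 7.59 (6.25 to 9.30).

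**Figure D1:**
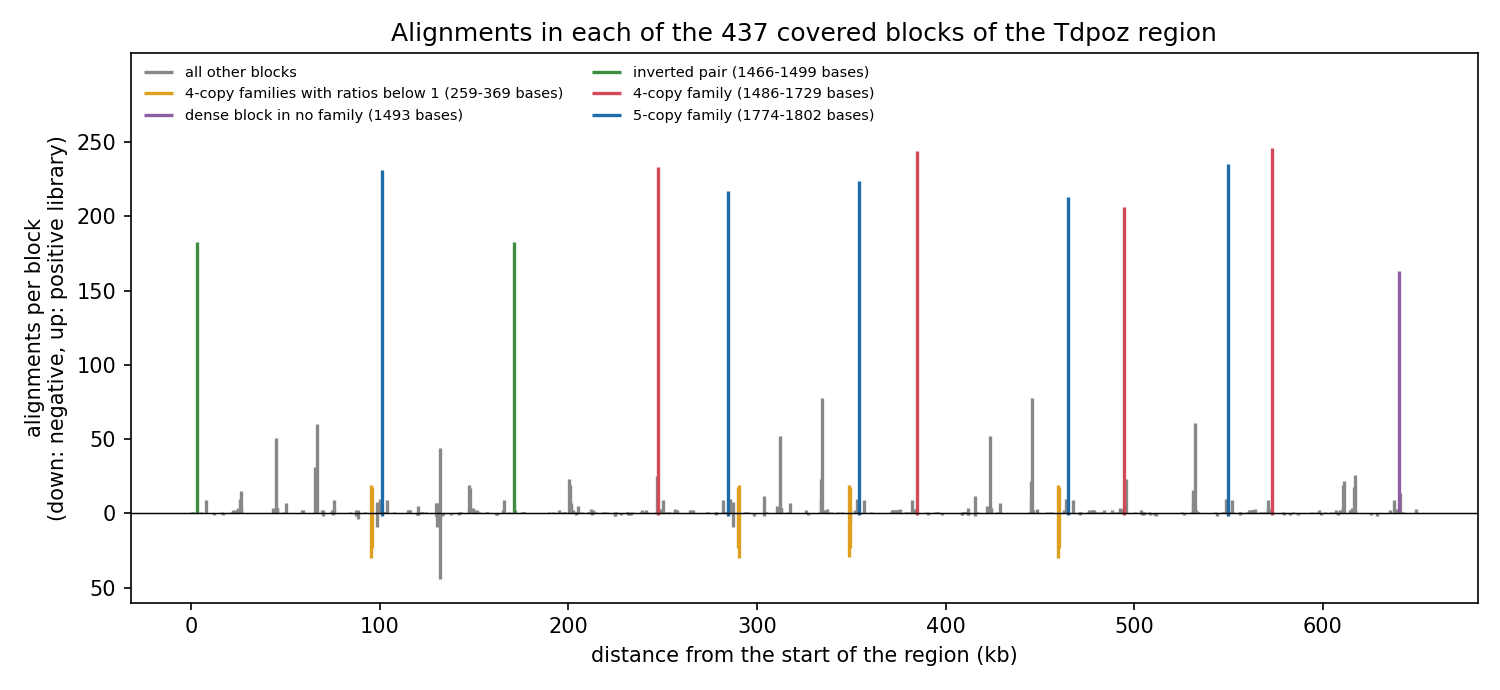
Alignments in each covered block (vertical axis, positive library upward and negative library downward) against distance from the start of the region in kb, coloured by family. The 12 tallest blocks, of 163 to 246 positive alignments, are spread over the whole region, and the negative library has its tallest bars, of 23 to 44, in blocks where the positive library has 18 to 44.

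**Figure D2:**
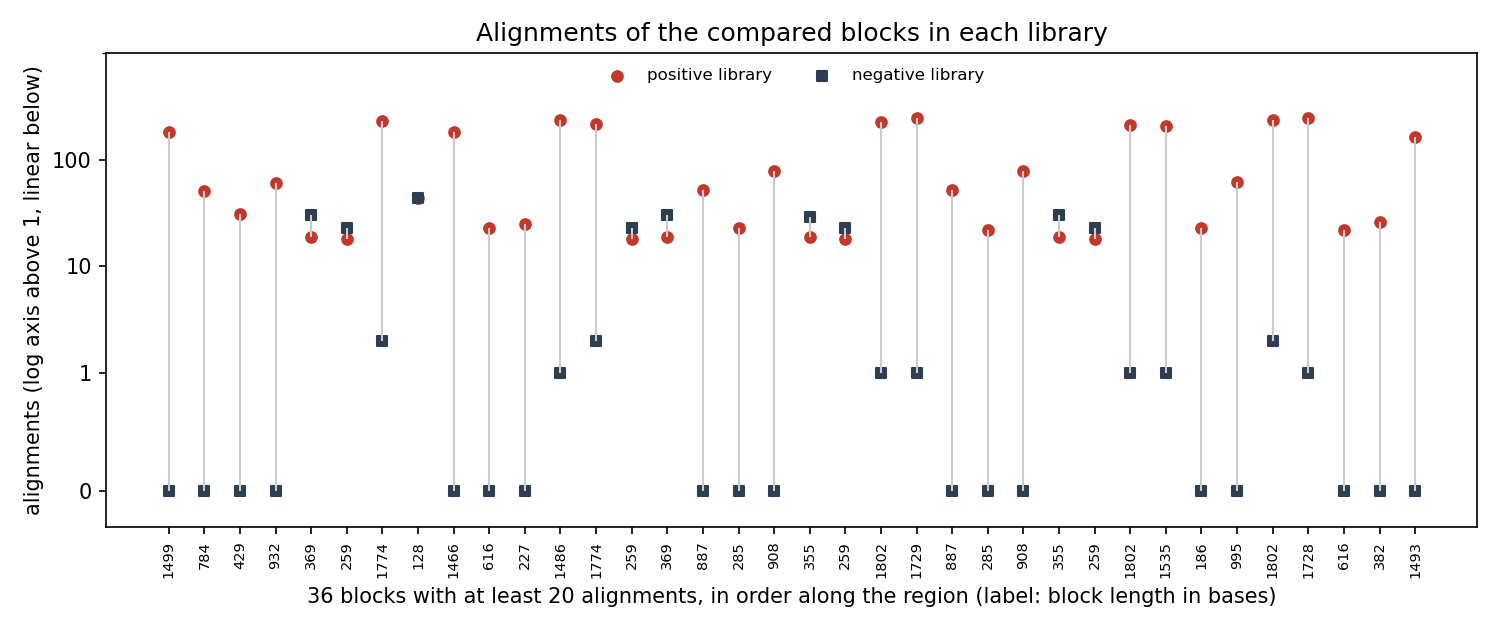
Alignments of the 36 compared blocks in each library (vertical axis, logarithmic above 1 and linear below), in order along the region and labelled with block length in bases. In 27 blocks the negative library has 0 to 2 alignments, and in 9 blocks both libraries have at least 18.

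The region's signal was concentrated in 12 long blocks. Each had at least 150 positive alignments, a limit set after the values were seen. Together they held 2578 positive and 12 negative alignments, 59.3% of the positive total. Their lengths ran from 1466 to 1802 bases and their maximum depths in the positive library from 20 to 33 reads. The smallest, with 163 alignments, had more than 2 times as many as the next block of the region, with 78.

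Near-identical copies are listed with the same reads, so blocks from copies of 1 sequence show alignment starts at the same relative positions. The 74 blocks with at least 6 start positions were compared with each other, in both orientations, in 2701 pairs. Blocks that shared at least 6 positions and at least 50% of the positions found in either were joined into families. This gave 19 families with 62 blocks, and 12 blocks stayed alone. The families held 80.2% of the region's positive alignments. A position counted as shared only where both blocks had the same count of starts in each library. This matching was chosen after the data were seen, and it is not independent of the library counts.

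The family with most alignments, called the largest family here, had 5 copies, with sizes from 1774 to 1802 bases. The copy at chr3:93530204-93531977 had 231 positive and 2 negative alignments. The copy at chr3:93713737-93715510 had 217 and 2, and the copy at chr3:93783292-93785093 had 224 and 1. The copy at chr3:93894064-93895865 had 213 and 1, and that at chr3:93978660-93980461 had 235 and 2. Every copy was listed far higher in the positive library. The likeness of the 5 copies follows from how the family was built and from shared reads, so they are not separate measurements. Their sums of 1120 and 8 alignments gave a ratio of 128 (64.6 to 297), with reads listed at several copies counted at each.

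The copies were not identical, and they fell into 2 kinds. Any pair shared 56.0 to 92.8% of the start positions found in either. Copies 1, 2 and 5 along the region shared 80 to 93% with each other and copies 3 and 4 shared 80%, while across these kinds the share was 56 to 64%. Start positions that no other copy of the family matched in place and counts numbered 0, 3, 13, 4 and 5 in order along the region. The 13 positions of the third copy held 28 of its 224 positive alignments. Those of the other copies held 0, 4, 7 and 8. Another copy may still have starts there in a different count or at a shifted place. These positions are therefore not shown to hold reads of 1 copy only. The negative library had 0 alignments at them.

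A second family had 4 copies. The copy at chr3:93676857-93678342 (1486 bases) had 233 positive alignments and that at chr3:93813819-93815547 (1729 bases) had 244. The copy at chr3:93923867-93925401 (1535 bases) had 206 and that at chr3:94002253-94003980 (1728 bases) had 246. Each had 1 alignment in the negative library. The sums were 929 and 4, a ratio of 212 (82.5 to 780), again with reads listed at several copies counted at each. Pairs shared 64 to 83% of start positions. Here each copy had positions not matched in place and counts by the others, 20, 16, 3 and 15 in order along the region. These held 20, 22, 4 and 21 positive alignments and 0 negative alignments.

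The unequal lengths of this family came from short gaps in cover. The first copy was followed, 16 uncovered bases away on its left, by a block of 227 bases with 25 and 0 alignments, and both spanned 1729 bases together. The third copy had a block of 186 bases with 23 and 0 alignments on its right, 7 bases away, and both spanned 1728 bases. These spans equal the lengths of the unbroken copies, 1729 and 1728 bases, and the flanking blocks are themselves copies that shared 89.5% of start positions.

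One long block stood in no family. At chr3:94069587-94071079 (1493 bases) it had 163 positive and 0 negative alignments, a stand-in ratio of 49.6 (interval from 39.9). It shared 22.4 to 31.2% of start positions with the 4-copy family, and the 5-copy family shared 14.6 to 25.2% with the 4-copy family. These shares are below the limit for a family but above those of the remaining long blocks.

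Those were an inverted pair at chr3:93432208-93433706 (1499 bases) and chr3:93600319-93601784 (1466 bases). Each had 183 positive and 0 negative alignments, a ratio of 55.7 with 3 put for 0 (interval from 44.8). They shared 108 start positions, 55.4% of those in either, in opposite orientation. Of their 153 and 150 positions, 45 and 42 had no match in place and counts in the other member. These held 51 positive alignments in each. The pair shared 6.5 to 9.6% of positions with the other 10 long blocks. The long blocks therefore formed 2 sets by their starts, the pair on one side and the 5-copy family, the 4-copy family and the lone block on the other.

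**Figure D3:**
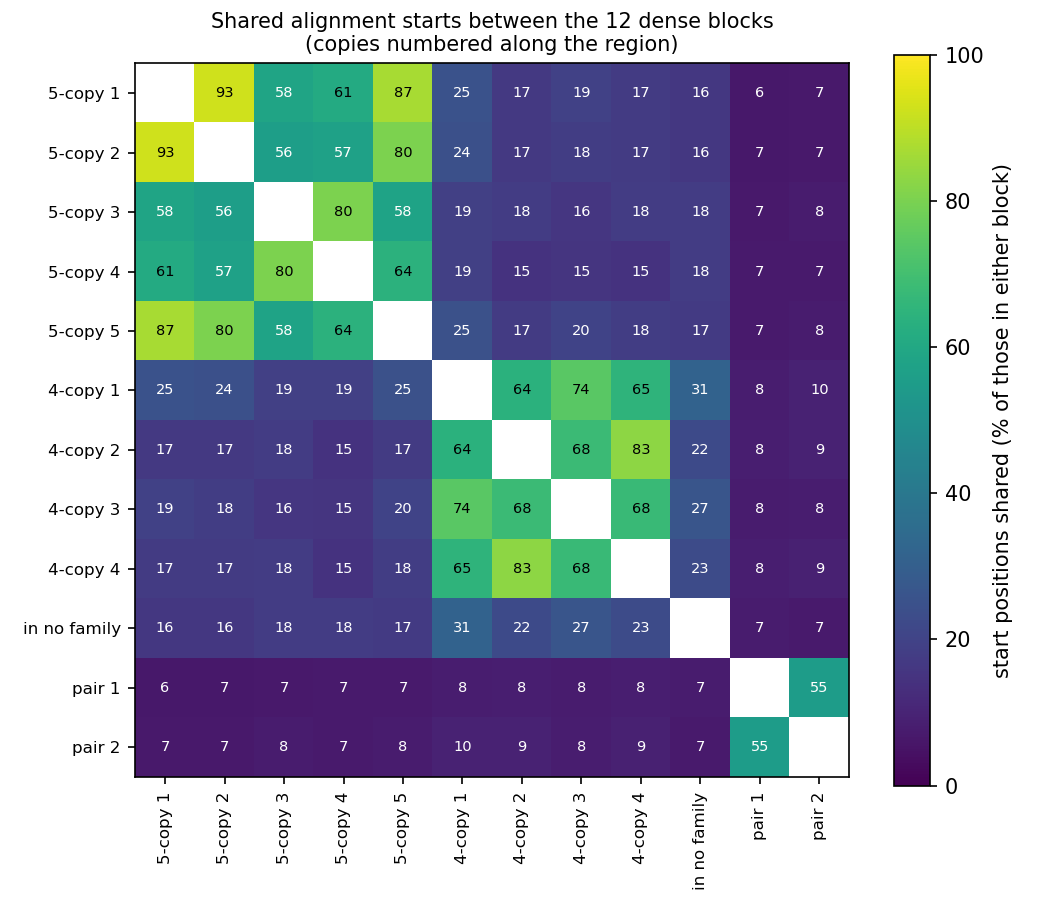
Share of alignment start positions held in common by each pair of the 12 long blocks (colour and numbers, % of positions in either block), with copies numbered along the region within each family. Shares are 56 to 93% within the 5-copy family, 64 to 83% within the 4-copy family, 55% in the inverted pair and 6 to 31% between families.

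A further copy of the pair's kind lay outside the region. At chr3:92877411-92878915 (1505 bases) the positive library had 189 alignments and the negative library 0. The ratio was 57.5 with 3 put for 0 (interval from 46.3). This block shared 98 of its 159 start positions with the pair's first member, 45.8% of those in either, just under the limit for a family.

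Most long blocks had a short companion, and 9 of the 12 had the same one at a like distance. A block of 100 bases with 9 positive and 0 negative alignments occurred 9 times, with all 6 start positions shared. It lay 1538 to 1562 bases from each of the 5 copies of the largest family. It lay 1499 to 1515 bases from 3 of the 4 copies of the second family, and 1514 bases from the lone block. The copy at chr3:93923867-93925401 had no block of this family within 10 kb. It had a thinner block, of 85 bases with 4 and 0 alignments, 1503 bases away on the same side as in the copies of its orientation. With 3 start positions that block was below the 6 needed for matching. Both members of the inverted pair had another companion, a block of 103 bases with 9 and 0 alignments, at 4099 and 4680 bases. In the largest family the companion lay on the right of 4 copies and on the left of the copy at chr3:93713737-93715510, the 1 copy in inverted orientation. In the 4-copy family the first copy was inverted relative to the other 3, and its companion lay on the other side than theirs where they had one.

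These layouts were compared with the lengths of annotated gene models, without coordinates. The 2-exon models were used, and Spopfm1, Spopfm2, Tdpoz1 and Tdpoz9 also have 1-exon models. Spopfm1 and Spopfm3 are typed as pseudogenes in RefSeq. Spopfm1, Spopfm2 and Spopfm3 have first exons of 121, 122 and 121 bases and first introns of 1508, 1535 and 1496 bases. Tdpoz1 and Tdpoz9 have first exons of 116 bases and introns of 4649 and 4580 bases. The second exon is 2125 bases in Spopfm2, 2206 in Tdpoz1 and 2209 in Tdpoz9. The distances beside 9 of the long blocks, 1499 to 1562 bases, were near the Spopfm introns. Those of the inverted pair, 4099 and 4680 bases, were nearer the Tdpoz introns. Tdpoz2, Tdpoz3 and Tdpoz4 are annotated with 1 exon each, of 1145, 1098 and 1113 bases, and offer no distance to compare. Block geometry thus bore out the label of a Tdpoz cluster only in part, and the blocks are called by family and position here.

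**Figure D4:**
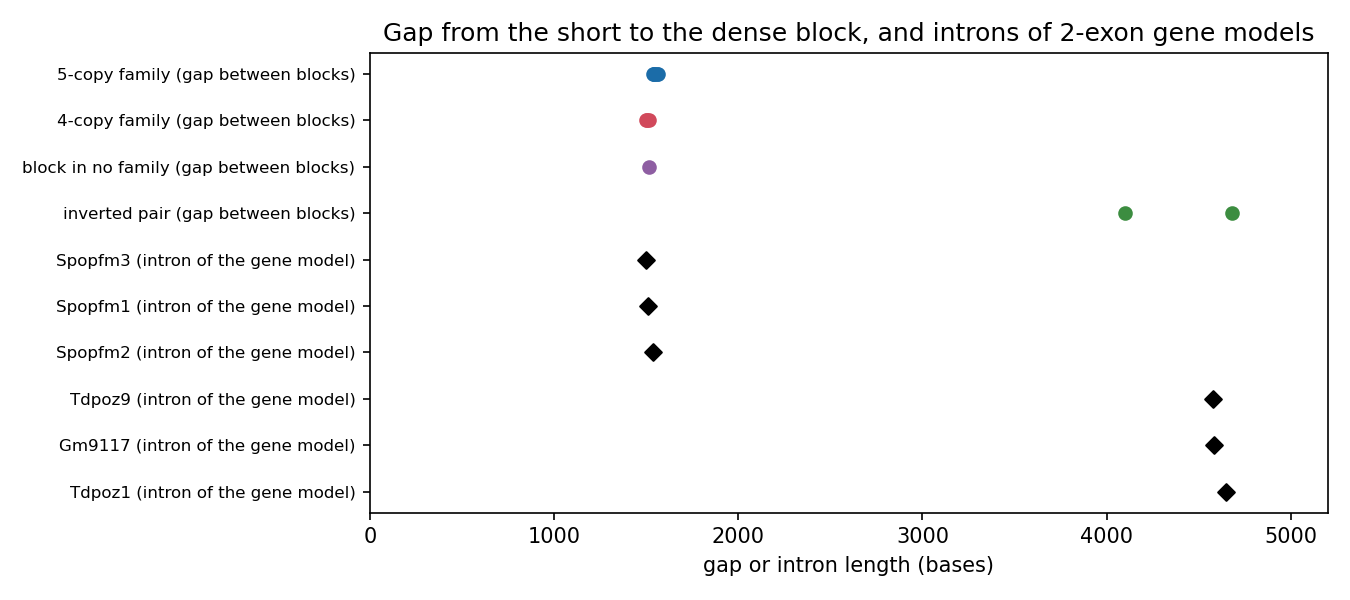
Distance in bases between each long block and its short companion (circles, 11 blocks by family) beside the first intron of 2-exon gene models (diamonds). Gaps of 1499 to 1562 bases lie with the Spopfm introns, of 1496 to 1535, and the gaps of the inverted pair, 4099 and 4680, are nearer to the introns of Tdpoz1, Tdpoz9 and Gm9117, of 4580 to 4649.

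Beyond the far end of each copy of the largest family lay a second companion. It was 192 bases long with 10 positive and 0 negative alignments, and in all 5 copies it was 79 uncovered bases away. The lone block had a neighbour of 180 bases with 14 and 0 alignments, 25 bases away. In the 5 copies of the largest family the short companion, the long block and the tail block thus kept 1 order, with like spacing.

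Depth along the copies was uneven, with like shares within a family. Counted from the end next to the short companion, the 5-copy family had 29.96 to 34.87% of its positive depth in the first of 3 equal stretches, 45.9 to 49.0% in the middle and 18.4 to 23.4% in the last. The 3 copies of the second family with a companion had 28.2 to 31.9%, 43.4 to 45.2% and 24.7 to 26.6%. The lone block had 29.2%, 43.7% and 27.0%. The inverted pair differed, with 38.1%, 37.3% and 24.6% in the first member and 37.8%, 37.3% and 24.9% in the second. The deepest base lay 600 bases from that end in 3 copies of the largest family, and 572 and 833 bases from it in the copies at chr3:93530204-93531977 and chr3:93713737-93715510. In the second family it lay at 606 bases in 2 copies and at 858 in the copy at chr3:93676857-93678342. These profiles come from reads listed at several copies and so are not separate measurements.

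**Figure D5:**
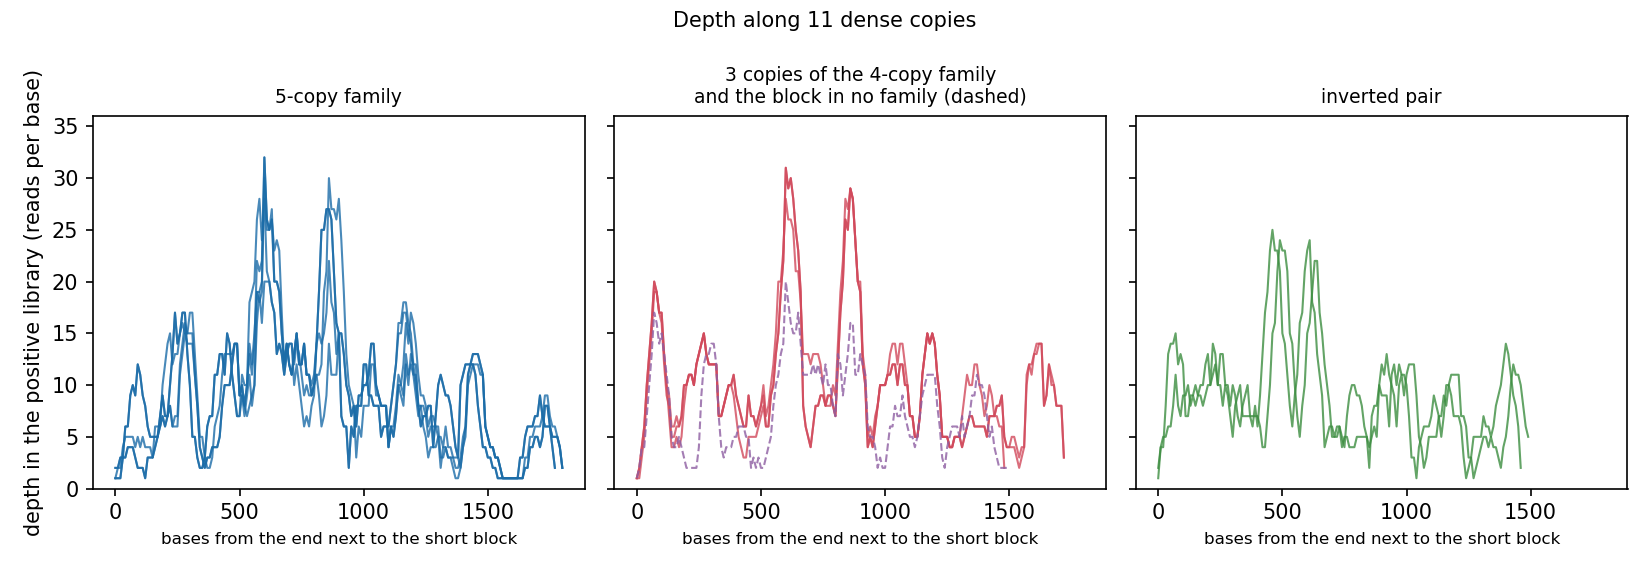
Read depth in the positive library (vertical axis, reads per base) against distance in bases from the end next to the short companion, for 11 of the 12 long blocks. Copies of the 5-copy and 4-copy families peak at up to 33 reads, 572 to 858 bases from that end. The lone block (dashed) peaks at 20 reads, at 597 bases. The inverted pair peaks at 25 and 26 reads, at 504 and 457 bases.

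Shorter families were also high in the positive library. A 3-copy family of 784 to 887 bases had 51, 52 and 52 positive and 0 negative alignments. Counted as 1 copy it had 57 and 0, a ratio of 17.3 with 3 put for 0 (interval from 13.7). A 4-copy family of 908 to 995 bases had 60, 78, 78 and 61 positive and 0 negative alignments. Counted as 1 copy it had 95 and 0, a ratio of 28.9 with 3 put for 0 (interval from 23.1). Pairs of 616, 382 and 298 bases had 45, 45 and 38 positive and 0 negative alignments in sum. A pair of 205 bases was an exception among these, with 12 and 2 alignments in each copy. Over the sum of both copies the ratio was 5.48 (1.88 to 21.7), and counted as 1 copy its interval was 1.22 to 50.4. Blocks on chromosome 12 carried the same pattern, at chr12:19712982-19713186 with 12 and 2 alignments and at chr12:19724532-19724777 with 12 and 3.

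The families followed each other in a repeated order along the chromosome. A block of the 3-copy family was followed 21.7 to 22.8 kb later by one of the 4-copy family of 908 to 995 bases, in each of 3 places. A long block of the 5-copy family came next, 34.2, 19 and 18.5 kb further on. In the last 2 of these places a long block of the other family followed after 30.5 and 29.8 kb. Another place lacked the 3-copy block but kept the rest, with distances of 17.1 and 23.6 kb. The region therefore held the same arrangement several times, with parts missing in some.

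Inside this arrangement some blocks were covered alike in both libraries. A 4-copy family of 355 to 369 bases had 19 positive alignments in every copy and 30, 30, 29 and 30 negative ones. In sum it had 76 and 119, a ratio of 0.583 (0.431 to 0.784). A neighbouring 4-copy family of 259 bases had 18 and 23 in every copy, in sum 72 and 92 (0.714, 0.517 to 0.983). Counted as 1 copy each, the 2 families had 19 and 31 (0.560, 0.299 to 1.02) and 18 and 23 (0.714, 0.363 to 1.38), intervals that include 1. Another flat family, a pair of 156 bases, had 8 and 9 alignments in each copy. The blocks of 259 to 369 bases lay 3931 to 4699 bases from 4 of the 5 copies of the largest family, whose own alignments were 213 to 231 and 1 or 2. The fifth copy had no such block beside it.

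Copies elsewhere bear on these flat blocks. Their start pattern recurred inside a block at chr3:78866579-78868494 (1916 bases) with 172 and 169 alignments, a ratio of 0.929 (0.747 to 1.16). The block of 128 bases with 44 alignments in each library shared its pattern with blocks on chromosomes 1, 4, 5, 7, 9 and 11. Those blocks had 34 to 47 positive and 31 to 50 negative alignments. Reads listed at several places cannot be given to 1 of them, so the region's own part in the cover of these blocks is unknown. With the 3 flat families and this block left out, the region's ratio was 35.0 (28.9 to 42.7), a rise fixed in advance, since these blocks were picked for ratios near or below 1.

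Since copies are listed with the same reads, the alignments overstate the reads behind them. When each family was counted as 1 copy, the families' 3486 positive alignments became 1199, 2.91 times fewer, and their 245 negative ones became 68. The 5-copy family then had 283 and 2 alignments, a ratio of 129 (35.4 to 1072), and the 4-copy family 304 and 1 (278, 49.4 to 10998). The inverted pair had 230 and 0, a ratio of 69.99 with 3 put for 0 (interval from 56.5). The whole region had 2058 and 204, a ratio of 9.21 (7.97 to 10.7). The intervals of the 5-copy and 4-copy families were wider than over their listed copies.

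Among regions made by joining windows at least 4-fold higher within 100 kb, the Tdpoz region ranked 6 of 470 by positive alignments. Its 28 windows held 3907 and 41 alignments, a ratio of 87.0 (64.01 to 121). The 3 regions with most alignments were at chr10:99760001-99860000, with 22507 and 723 (28.4, 26.4 to 30.6), chr7:11370001-11760000, with 14318 and 79 (165, 133 to 209), and chr7:11890001-12200000, with 12644 and 79 (146, 117 to 185). By identical stretches of 64 bases with at least 8 start positions and 20 starts, 90.7, 83.3 and 90.2% of their alignments lay in stretches found at several places, against 16.9% in the Tdpoz windows. The 3 regions held their alignments in 9, 9 and 6 windows. A minimum of 20 starts is met more easily where depth is higher, so these shares are not a like comparison. Whether depth accounts for the contrast was not tested. Over the whole Tdpoz region the share in repeated stretches depended on the setting. It was 17.8% of positive alignments with this one, 31.1% with stretches of 100 bases, 6.58% with at least 12 positions and 30 starts, and 52.9% with stretches of 200 bases and no minimum of starts. All of these regions were chosen by the same ratio, so their ratios are descriptions and were not tested against each other.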

How the data were processed

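Messenger RNA of FACS-sorted cells was sequenced. For each library the authors deposited a coverage track, whose signal counts the reads over a base and is unscaled. Per the file headers, each track came from a sorted BAM file. The submitters' processing notes name Bowtie and mm9. Version and settings were not given in the sources used here. Strand is not kept. A track of ungapped alignments of 72 bases can be solved for its starts, and at that length 0 starts came out negative in both libraries, so reads across splice junctions are not among them.

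Alignments were counted by start per block and per 10 kb window. Blocks or windows with at least 20 alignments were called higher at a ratio of at least 4 with a 95% interval above 1. A count of 0 was replaced by 3 for ratios. The region and its lists were chosen with earlier results of these data known. Blocks named in full are the 10 with most alignments and those nearest the limit, and other blocks were chosen after their values were seen. Gene models and sequences came from GENCODE M21 and RefSeq tables for GRCm38, of which names, order, lengths and sequences were used and no coordinate was carried to mm9. Alternatives covered scaling, position counting, repeated stretches, block joining and minimum counts. Scripts used Python 3.11.15, numpy 2.4.6, scipy 1.17.1, pandas 2.3.3 and biopython 1.88, and were tested on simulated data.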

Additional observations from a re-analysis of the deposited data

How the results depend on the processing

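The region's ratio of 10.4 was 10.2 under median-ratio scaling, 11.04 with each start position counted 1 time, 10.4 by summed depth and 10.4 in libraries thinned to equal totals. It was 14.96 with alignments down-weighted by places and 17.8 with repeated stretches left out. Alternatives added after the data were seen gave 20.96 without stretches of 200 bases, 9.21 with each family as 1 copy and 35.0 without the flat blocks, which were picked for their low ratios. The cause of these shifts was not tested beyond what was left out. The block count of 27 was 19 to 27 under 6 settings, summed depth among them, and 64 with no minimum. Depth of at least 2, and joining across 100 bases, gave 293 and 309 blocks for 437. With 50 kb windows 447 were called in the genome for 817, and 13 in the region for 28. Identical stretches of 64 bases joined 19 blocks into 5 groups, those of 100 bases 26 into 7 and the stricter limits 6 into 2. Settings chosen after the data were seen joined 35 blocks into 10 groups (200 bases) and, by whole start profiles, 62, 63 and 58 blocks into 19, 19 and 20 groups at limits of 50, 40 and 70%. The 10 blocks named in full stayed higher in the positive library in all 68 values recomputed, from 4.26 to 225, and 5 of these moved. Of the 68, 10 were by summed depth and could not move, the 225 among them. The value of 4.26 was that of the copy at chr3:93530204-93531977, with 14 and 0 alignments once stretches of 200 bases were left out. It has 3 put for 0, and its interval began at 3.03. For 2 blocks that setting left too few alignments for a ratio. No paired analysis was possible because there was 1 library a population, and no replicate could be left out.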
